A study of Mus musculus with 45 samples.

Results

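The 84 genes described here encode the nuclear-encoded subunits of the mitochondrial oxidative phosphorylation system. They were chosen by symbol and by listing: a gene had to lie off the mitochondrial chromosome, be listed in both deposited TPM tables (1 for males, 1 for females) and carry a symbol beginning with Ndufa, Ndufb, Ndufc, Ndufs or Ndufv and a digit, with Uqcr, with Cox4 to Cox8 or with Atp5, or be named Sdha, Sdhb, Sdhc, Sdhd or Cyc1. Of the 55401 genes counted, 15828 were in both TPM tables and 84 met the rule. Another 14 of the 98 genes that matched by symbol were not listed in both TPM tables, and none of these exceeded 113 counts in any mouse. No change between groups entered the rule, and levels entered it only through the filter behind the TPM tables (6 or more counts, reached by 20% or more of mice). The set holds 36 genes of complex I, 4 of complex II, 9 of complex III, 18 of complex IV, with Ndufa4 and Ndufa4l2 placed there, and 17 of the ATP synthase.

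The libraries were TRAP RNASeq (translating ribosome affinity purification) from the kidneys of 45 mice, each mouse 1 library. The study asked how gene expression in the tubule changes with loss of Pkd1, the polycystin-1 gene, and with additional loss of cilia through Kif3a, a kinesin subunit needed to build them. Every mouse carried Pax8rtTA, TetOCre and the Rosa EGFP-Rpl10a allele. Doxycycline was given from postnatal day 28 to day 42 and the kidneys were taken at 7 weeks of age (postnatal day 49). Noncystic mice carried 1 floxed and 1 wild-type Pkd1 allele and are labelled as wild type. Pkd1KO mice carried 2 floxed Pkd1 alleles, and Pkd1KO+ciliaKO mice carried 2 floxed Pkd1 and 2 floxed Kif3a alleles. There were 8 noncystic, 7 Pkd1KO and 9 Pkd1KO+ciliaKO males, and 7, 8 and 6 females of the same genotypes. Because Pax8rtTA directs Cre, and with it the tagged ribosome, to renal tubule cells of many segments, each library averages over those segments, and in such bulk RNA fewer cells of a type and less RNA per cell cannot be told apart.

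The oxidative phosphorylation system sits in the inner mitochondrial membrane. Complex I takes electrons from NADH and complex II from succinate, complex III passes them from ubiquinol to cytochrome c, complex IV hands them to oxygen, and the proton gradient built along the way drives the ATP synthase. Complexes I, III and IV and the ATP synthase combine subunits of nuclear and mitochondrial origin, those of complex II are all nuclear-encoded, several complex IV subunits exist as a widely expressed form and a form known from muscle, testis or lung, and the proximal tubule and thick ascending limb, which move large amounts of salt and solute, are among the segments richest in mitochondria.

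Promoter sequences were compared for genes on which the results below turn: a pair of isoforms of complex IV subunit VIb (Cox6b1 and Cox6b2), a pair of subunit VIII (Cox8a and Cox8b), and the NADH-binding subunit of complex I (Ndufv1). RefSeq promoter windows on GRCm38.p6, from 250 bases before to 30 after the start of the gene, were available for 67 of the 84 genes. Each line gives 280 bases, 5′ to 3′ on the gene's strand, in lower case, with capitals marking a match to the core of the binding motif of GABP (NRF2), a factor known for its sites in these genes. The windows are chr7:30626085-30626364, minus strand, for Cox6b1, chr7:4753065-4753344, minus strand, for Cox6b2, chr19:7217587-7217866, minus strand, for Cox8a, chr7:140900417-140900696, minus strand, for Cox8b, and chr19:4012726-4013005, minus strand, for Ndufv1.
Cox6b1: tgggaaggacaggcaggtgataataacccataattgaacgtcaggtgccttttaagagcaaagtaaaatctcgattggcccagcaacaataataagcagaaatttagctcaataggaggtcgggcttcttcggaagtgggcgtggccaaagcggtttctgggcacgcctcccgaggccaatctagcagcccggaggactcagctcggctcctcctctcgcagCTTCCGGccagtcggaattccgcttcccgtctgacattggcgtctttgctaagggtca
Cox6b2: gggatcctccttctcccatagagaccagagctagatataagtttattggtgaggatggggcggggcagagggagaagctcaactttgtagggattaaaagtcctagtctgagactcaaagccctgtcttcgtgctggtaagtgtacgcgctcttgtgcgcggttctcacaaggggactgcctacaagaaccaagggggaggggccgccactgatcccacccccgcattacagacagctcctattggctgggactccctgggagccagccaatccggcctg
Cox8a: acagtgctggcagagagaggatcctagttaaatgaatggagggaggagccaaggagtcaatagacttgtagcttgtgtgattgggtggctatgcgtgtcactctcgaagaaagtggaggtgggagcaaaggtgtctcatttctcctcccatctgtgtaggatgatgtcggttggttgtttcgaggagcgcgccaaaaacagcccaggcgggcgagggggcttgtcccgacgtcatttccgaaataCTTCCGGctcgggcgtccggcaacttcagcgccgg
Cox8b: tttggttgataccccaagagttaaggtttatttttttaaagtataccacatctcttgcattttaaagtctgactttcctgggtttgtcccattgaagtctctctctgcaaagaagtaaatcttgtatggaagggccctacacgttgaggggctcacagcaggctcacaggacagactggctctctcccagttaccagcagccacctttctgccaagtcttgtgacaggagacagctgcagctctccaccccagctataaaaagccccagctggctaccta
Ndufv1: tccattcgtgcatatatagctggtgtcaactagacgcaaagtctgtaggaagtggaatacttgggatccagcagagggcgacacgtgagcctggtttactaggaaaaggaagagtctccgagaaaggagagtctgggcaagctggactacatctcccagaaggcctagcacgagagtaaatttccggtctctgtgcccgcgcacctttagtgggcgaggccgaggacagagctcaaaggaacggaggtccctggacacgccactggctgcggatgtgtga

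The widely expressed forms Cox6b1 and Cox8a each held 1 GABP match and 16 and 17 CpG dinucleotides, at 53.6% and 55.4% G+C. Their counterparts Cox6b2 and Cox8b held no match and 9 and 1 CpG dinucleotides, at 56.4% and 47.5% G+C. Ndufv1 held 14 CpG dinucleotides at 54.6% G+C and no match to any of the 4 motifs searched. In a further pair, neither the widely expressed Cox7a2 nor its counterpart Cox7a1 held any match. A GABP match thus did not set the forms apart in every pair. Over all 67 windows, on either strand, the NRF1 motif (GCGCA and GCGC with any base between) was found in 15 (22.4%), against 8.55% of 12268 windows of genes in both TPM tables and 4.41% of all 32851 windows. The GABP motif (CCGGAAG) was also found in 15 windows (22.4%, against 15.2% and 8.45%). The YY1 motif (AAGATGGC) was found in 3 (4.48%, against 3.05% and 2.29%) and the motif of the estrogen-related receptors (TCAAGGTCA) in 1 (1.49%, against 0.245% and 0.417%). In all, 29 of the 67 windows held at least 1 of these letter strings. The GABP and YY1 strings can share bases (AAG), each motif was counted by itself, and a match describes the window only.

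The subunit genes were among the most abundant in these libraries. On the deposited TPM scale, which corrects for gene length, the 84 genes had a median of 512 TPM (each gene taken at its median over the 45 mice), and 76 of them reached 100 TPM. The medians by complex were 399 TPM for complex I, 595 TPM for complex II, 1024 TPM for complex III, 911 TPM for complex IV and 783 TPM for the ATP synthase. The 3 highest were Cox8a at 3001 TPM (range over mice 2147 to 3460), Cox6b1 at 2770 TPM and Atp5b, the catalytic beta subunit of the ATP synthase, at 2481 TPM. The 3 lowest were all complex IV isoforms: Cox4i2 at 1.18 TPM, Cox6a2 at 4.35 TPM and Ndufa4l2 at 5.43 TPM.

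**Figure D1:**
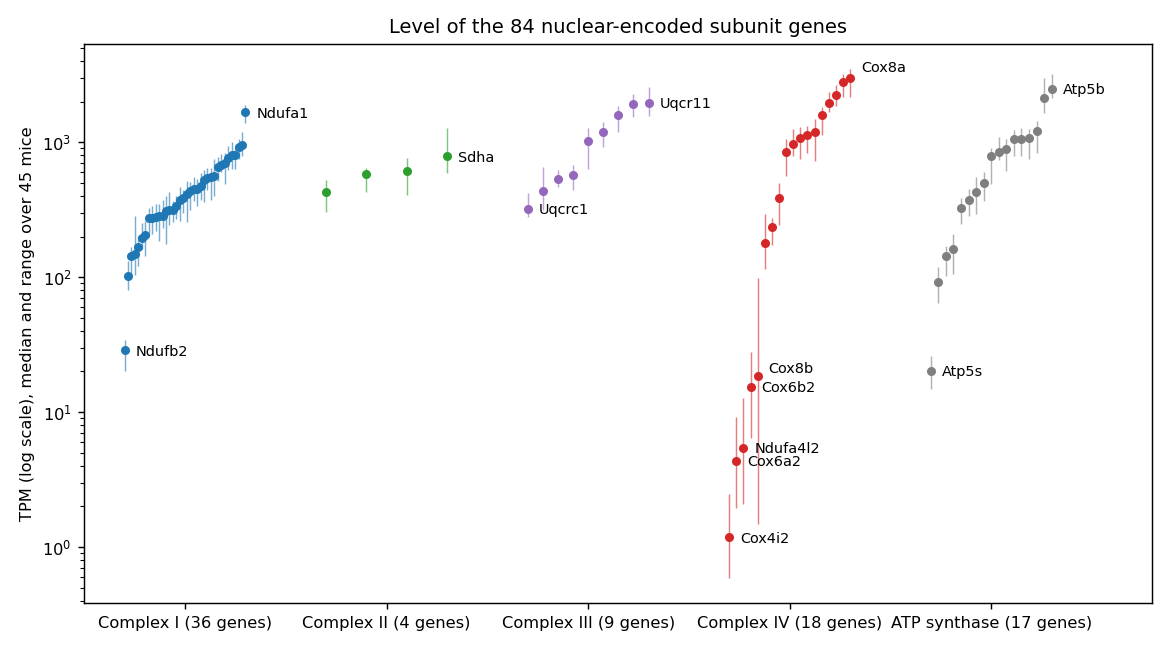
Level of each of the 84 genes in TPM on a log axis, grouped by complex; points are medians and bars the lowest to highest of 45 mice. Cox8a is highest at 3001 TPM and Cox4i2 lowest at 1.18 TPM, and Cox8b has the widest bar, from 1.47 to 97.7 TPM.

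In every isoform pair of complex IV the widely expressed form was the higher, as the plot of TPM by complex shows. Cox4i1, the common subunit IV, stood at 1940 TPM beside 1.18 TPM for Cox4i2, the form known from lung, and Cox6a1 stood at 2221 TPM beside 4.35 TPM for Cox6a2, the heart and skeletal muscle form. Cox6b2, known from testis, reached 15.4 TPM (6.47 to 27.9), and Cox8b, known from muscle and brown fat, 18.4 TPM (1.47 to 97.7). Cox7a1, the other muscle-type form, was the least rare, at 180 TPM beside 1581 TPM for Cox7a2 and 384 TPM for Cox7a2l, which takes part in joining complexes III and IV. Ndufa4 stood at 1081 TPM beside 5.43 TPM for Ndufa4l2, which is known to be induced by low oxygen. The 3 genes for the identical c-ring subunit of the ATP synthase were unequal, at 1061 TPM for Atp5g3, 160 TPM for Atp5g1 and 143 TPM for Atp5g2.

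Total counts ranged from 80874556 to 132958186 per mouse, and the 84 genes took 2.68% to 3.40% of them. Below, CPM denotes counts per 1000000 after TMM scaling, and a gene is called when its p from the quasi-likelihood test of edgeR, adjusted by Benjamini-Hochberg over all genes tested, is 0.05 or less. Kif3a lay between 4.90 and 8.47 CPM in 14 of 15 Pkd1KO+ciliaKO mice and between 13.8 and 29.2 CPM in 29 of the 30 others, but noncystic female 5 stood at 6.69 CPM and Pkd1KO+ciliaKO female 6 at 20.7 CPM, against their labels. Results in females are therefore also given without these 2 mice where that changes a call among the 84 genes. The other gene lists below were read with all mice only. Pkd1 itself was called in none of the 6 genotype comparisons (log2 fold change -0.45, adjusted p = 0.099, in Pkd1KO against noncystic males). Cre removes only some exons of the floxed Pkd1 allele, while the counts cover all exons and need not follow the deletion. On the first principal component of all genes 4 males lay toward the females (noncystic male 3, Pkd1KO male 4 and Pkd1KO+ciliaKO males 6 and 8). Genes defining proximal tubule (10 genes) and thick ascending limb (5 genes) were detected in every mouse.

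Taken as a sum, the subunit genes of every complex were high in all 6 groups and the ranges of the groups overlapped. The 84 genes summed to 29546, 32597 and 34689 CPM (lowest, median and highest mouse) in noncystic males, to 26034, 30770 and 32690 CPM in Pkd1KO males and to 28195, 31215 and 34450 CPM in Pkd1KO+ciliaKO males. In females the same sums were 28720, 31195 and 33628 CPM in noncystic, 26271, 30598 and 32025 CPM in Pkd1KO and 27274, 28838 and 32919 CPM in Pkd1KO+ciliaKO mice. The subunits encoded by the mitochondrial genome, counted in the same libraries, spread more widely, from medians of 681 CPM in Pkd1KO females to 1810 CPM in Pkd1KO+ciliaKO females.

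**Figure D2:**
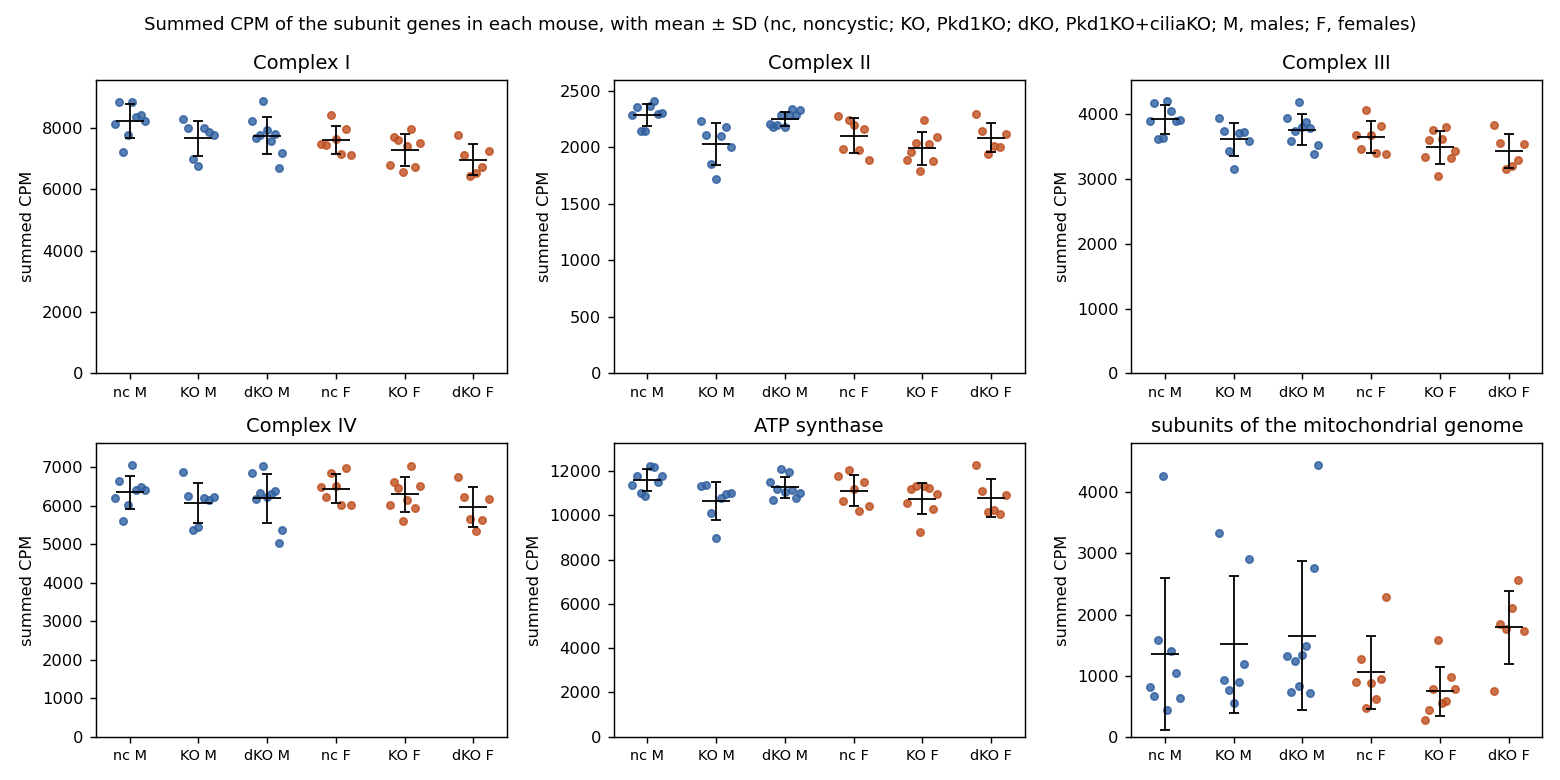
Summed CPM of the subunit genes of each complex, and of the subunits encoded by the mitochondrial genome, in each mouse (points), with mean ± SD per group; blue males, orange females. The nuclear-encoded sums overlap between all groups, while the mitochondrially encoded sum varies several-fold between mice of a group.

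In males, 1 subunit gene was lower past the threshold with loss of Pkd1: Ndufs1, which encodes the largest complex I subunit and carries iron-sulfur clusters of its electron input arm. Pkd1KO against noncystic males called 1 of the 84 genes, where 6.3% of all genes tested were called. The estimates leaned low: 77 of the 84 were below 0, against 51.6% of all genes, with a median log2 fold change of -0.09 against -0.01 over all genes, and by complex the median ran from -0.04 in complex IV to -0.18 in complex II. At an unadjusted p under 0.05 there were 12 genes, 11 of them lower, and DESeq2 called 5: Ndufs1, Uqcrc2, Sdha and Ndufa5 lower and Cox6b2 higher. For 79 of the 84 genes the 95% interval of the log2 fold change lay within 0.5 of 0. Without Pkd1KO male 4, the mouse with the lowest sum over the subunit genes (26034 CPM), the median was -0.07.

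Markers of other cells and segments moved with this comparison. The 5 thick ascending limb genes summed to 2458, 3444 and 4653 CPM (lowest, median and highest) in noncystic and to 2127, 2225 and 3550 CPM in Pkd1KO males, with 1 of the 5, Slc12a1, called lower. The 5 macrophage genes summed to 67.2, 86.3 and 94.4 CPM and to 92.5, 108 and 244 CPM, with Csf1r called higher, and the 5 tubule injury genes to 376, 498 and 752 CPM and to 520.4, 626 and 1652 CPM, with Lcn2 and Krt20 called higher. Pkd1KO male 4 had the highest macrophage sum and the highest endothelial sum (316 CPM, group median 103). The part of these markers in the lean of the subunit genes was not tested.

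Ndufs1 stood at 373, 448 and 503 CPM (lowest, median and highest) in noncystic males, at 309, 357 and 402 CPM in Pkd1KO males and at 397, 429 and 594 CPM in Pkd1KO+ciliaKO males. In females the values were 290, 353 and 403 CPM in noncystic, 277, 307 and 364 CPM in Pkd1KO and 345, 358 and 374 CPM in Pkd1KO+ciliaKO mice. In both sexes the Pkd1KO group had the lowest median, 4 of 7 Pkd1KO males lay under every noncystic male and 7 of 8 Pkd1KO females lay under every Pkd1KO+ciliaKO female, although the ranges overlapped. The log2 fold change was -0.31 (SE 0.08, adjusted p = 0.0203) in Pkd1KO against noncystic males, and the call was kept without each of the 15 mice in turn and lost with no filter on low counts (adjusted p = 0.0534). It was -0.30 (adjusted p = 0.059) against Pkd1KO+ciliaKO males, where DESeq2 also called it, -0.21 (SE 0.06, adjusted p = 0.0335) against Pkd1KO+ciliaKO females, and -0.14 (adjusted p = 0.362) against noncystic females. The call in females was lost without the 2 mice that go against their Kif3a label, and also without any 1 of Pkd1KO females 2, 6, 7 and 8 or Pkd1KO+ciliaKO females 3, 4, 5 and 6, with an adjusted p of up to 0.0719. Ndufs1 shares exon bases with Eef1b2, a translation elongation factor gene, on the opposite strand. Whether the counting used strand is not given in the sources used here, so how reads of the shared bases were counted is not known. Eef1b2 had a median of 24789 counts per mouse, beside 26589 to 75115 for Ndufs1. Eef1b2 was itself called in no comparison.

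Uqcrc2, a core subunit of complex III, and Sdha, the flavoprotein of complex II that oxidises succinate, had the next lowest estimates among the central subunits in Pkd1KO males. Uqcrc2 ranged from 360 to 429 CPM in noncystic (median 380), from 272 to 369 CPM in Pkd1KO (median 336) and from 355 to 433 CPM in Pkd1KO+ciliaKO males (median 367). Its log2 fold change in Pkd1KO males was -0.22 (adjusted p = 0.0561) against noncystic and -0.19 (adjusted p = 0.117) against Pkd1KO+ciliaKO males, and that of Sdha was -0.20 (adjusted p = 0.129) and -0.19 (adjusted p = 0.22). Neither passed the threshold of the main test.

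Pkd1KO against Pkd1KO+ciliaKO males called none of the 84 genes, where 3.77% of all genes were called. Estimates were below 0 for 59 of the 84 genes (48.2% of all genes) with a median of -0.03. At an unadjusted p under 0.05 there were 11 genes, and DESeq2 called 3 (Ndufs1, Uqcrc2 and Atp5a1, the alpha subunit of the ATP synthase, all lower in Pkd1KO). The 3 smallest p-values belonged to Ndufs1, Uqcrc2 and Cox6b2, the last with a log2 fold change of -0.56 (adjusted p = 0.118).

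Loss of Pkd1 and cilia together in males gave 4 calls, all with overlapping ranges: the isoforms Cox6b2 and Cox7a1 were higher, and the complex I subunits Ndufa8 and Ndufv1 lower, in Pkd1KO+ciliaKO than in noncystic males. The 4 called genes of 84 stand beside 8.89% of all genes called. The estimates were below 0 for 67 of the 84 genes (48% of all genes) with a median of -0.05, beside 0.01 over all genes. On log2(TPM + 1) values tested with limma only 23 were below 0 and the median was 0.04, beside 0.06 over all genes. No direction of the group against 0 can therefore be given, while its median lay below that of all genes on both scales.

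**Figure D3:**
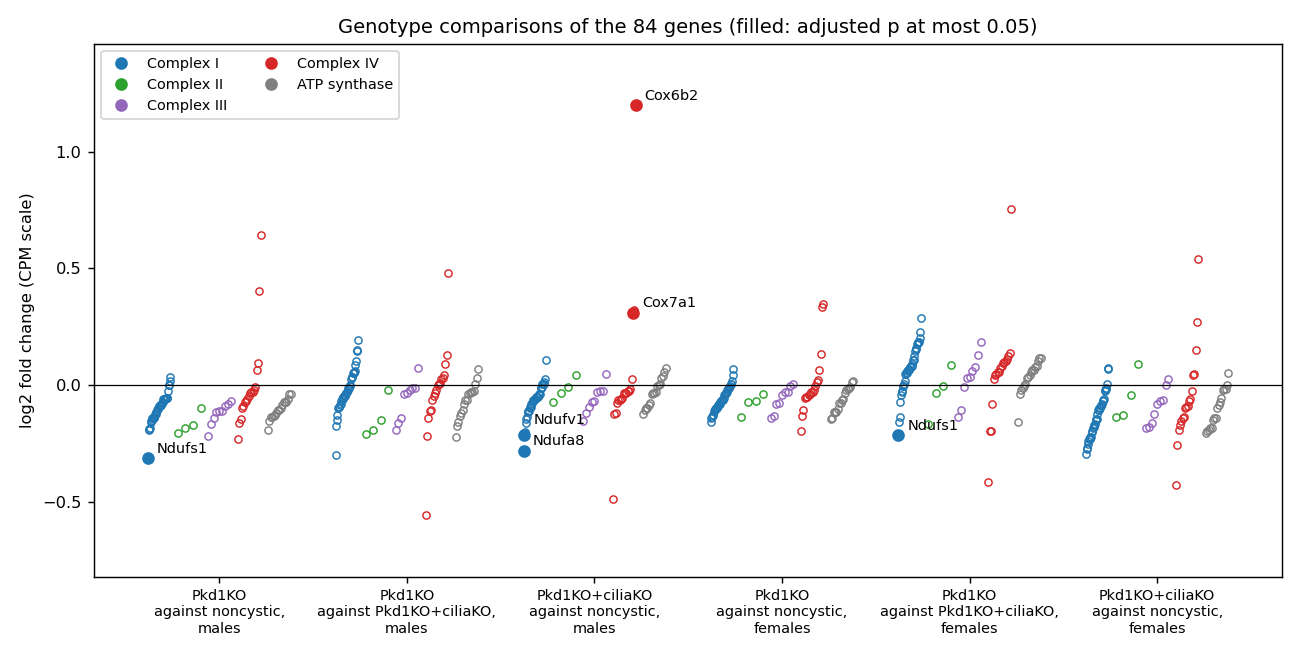
Log2 fold change of each of the 84 genes (edgeR, CPM scale) in the 6 genotype comparisons, ordered within each complex; filled points have an adjusted p of at most 0.05. Of the filled points, Cox6b2 lies highest at 1.20 and Ndufs1 lowest at -0.31, and no ATP synthase gene is filled.

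Cox6b2 showed the largest of the called genotype differences. It stood at 2.48, 2.65 and 4.47 CPM in noncystic males, at 3.31, 3.80 and 7.47 CPM in Pkd1KO males and at 4.17, 6.89 and 8.69 CPM in Pkd1KO+ciliaKO males, so that 8 of the 9 Pkd1KO+ciliaKO males lay above every noncystic male. The log2 fold change of Pkd1KO+ciliaKO against noncystic males was 1.20 (SE 0.15, adjusted p = 8.94e-05), a 2.29-fold difference, and the call was kept without each of the 17 mice in turn and under all 9 other settings, with log2 fold changes from 1.10 to 1.27. The Pkd1KO males lay between, with a log2 fold change of 0.64 against noncystic males (adjusted p = 0.0543). Females of the same groups stood at 3.26, 4.24 and 7.05 CPM, at 3.16, 5.93 and 8.40 CPM and at 5.22, 6.84 and 8.10 CPM. In females Pkd1KO+ciliaKO against noncystic gave 0.54 (adjusted p = 0.0873), which passed the threshold without the 2 mice that go against their Kif3a label. The sexes' fold changes in this comparison differed by -0.66 on the log2 scale, females less males (SE 0.27, adjusted p = 0.758). Even at its highest, 27.9 TPM, Cox6b2 lay far under the lowest Cox6b1 level, 2149 TPM.

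Cox7a1 stood at 21.2, 27.4 and 31.2 CPM in noncystic, at 24.4, 28.2 and 30.6 CPM in Pkd1KO and at 27.4, 31.2 and 44.1 CPM in Pkd1KO+ciliaKO males. Its log2 fold change in Pkd1KO+ciliaKO against noncystic males was 0.31 (SE 0.09, adjusted p = 0.043), with 5 of 9 mice above every noncystic male. This call was kept only without noncystic male 3 or Pkd1KO+ciliaKO male 2 or 9. Without any 1 of the other 14 mice it was lost, with an adjusted p of up to 0.101.

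Ndufa8, an accessory complex I subunit on the intermembrane-space side, stood at 205, 241 and 275 CPM in noncystic, at 202, 232 and 246 CPM in Pkd1KO and at 162, 193 and 236 CPM in Pkd1KO+ciliaKO males. Its log2 fold change in Pkd1KO+ciliaKO against noncystic males was -0.28 (adjusted p = 0.0327). Ndufv1, which binds FMN and NADH, stood at 397, 453 and 523 CPM, at 323, 407 and 445 CPM and at 373, 388 and 447 CPM in the same order, with a log2 fold change of -0.21 (adjusted p = 0.036). For each gene 6 of 9 Pkd1KO+ciliaKO males lay under every noncystic male. Ndufa8 lost its call without any 1 of noncystic males 1, 2, 5, 6 and 8 or Pkd1KO+ciliaKO males 2, 6, 7 and 9 (adjusted p up to 0.0573), and Ndufv1 without any 1 of noncystic males 1, 2 and 6 or Pkd1KO+ciliaKO males 1, 2, 3, 6, 7 and 8 (adjusted p up to 0.0694). Of markers that moved with these groups, the summed level of the proximal tubule genes had medians of 15436 CPM in noncystic (9639 to 16997), 11682 CPM in Pkd1KO (7532 to 14435) and 10922 CPM in Pkd1KO+ciliaKO males (7013 to 13291). The part of these genes in the subunit results was not tested. Without the 4 males that lay toward the females the 4 calls were kept, and Ndufa2 was called lower as well. With no filter on low counts the Cox7a1, Ndufa8 and Ndufv1 calls were lost.

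**Figure D4:**
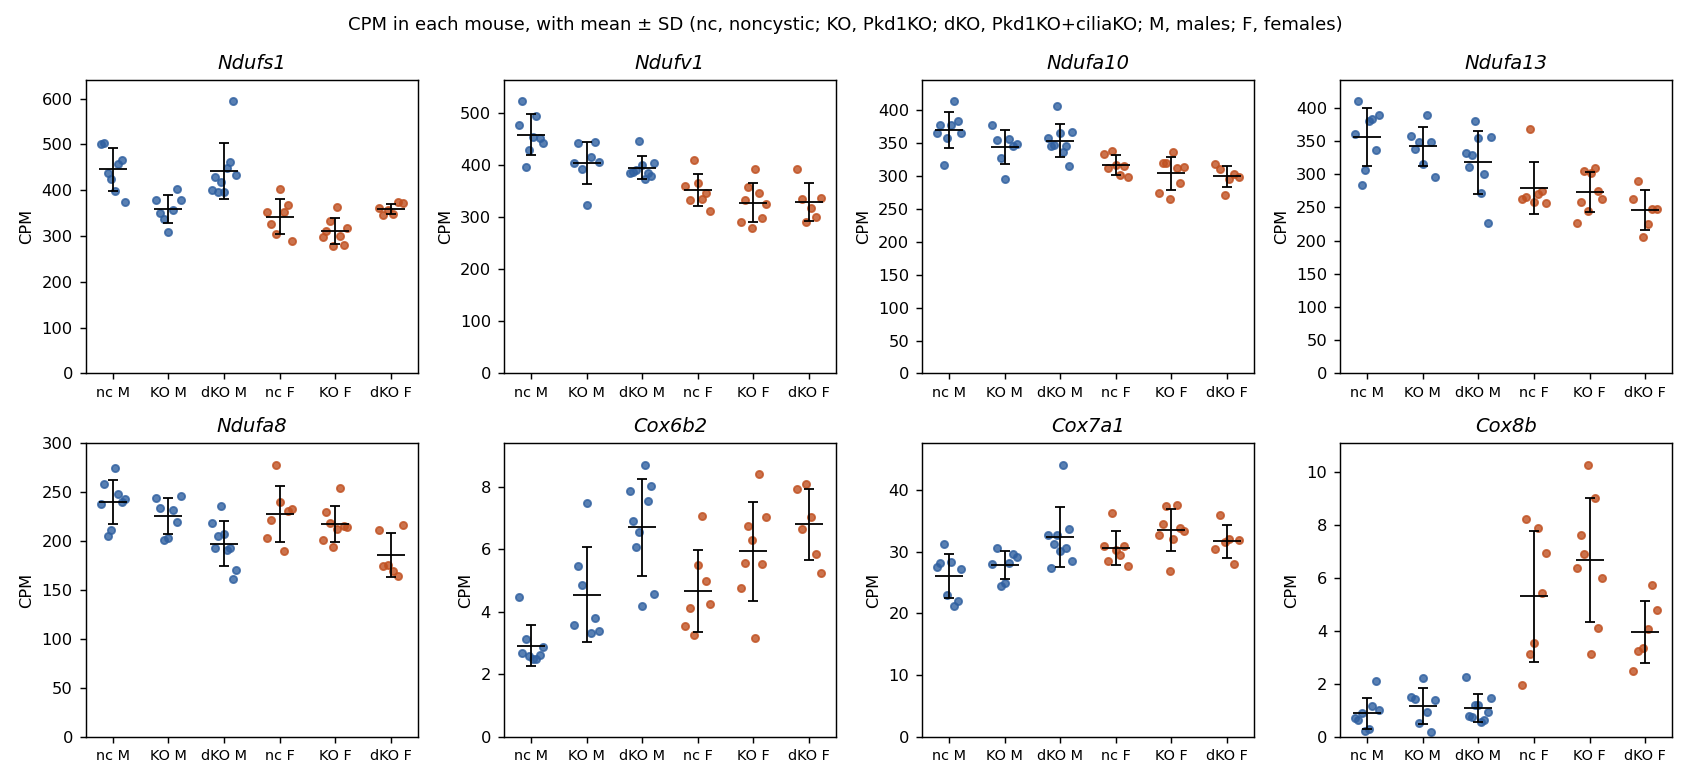
CPM of 8 subunit genes in each mouse (points), with mean ± SD per group; blue males, orange females, axes from 0. Cox6b2 rises from a median of 2.65 to 6.89 CPM between noncystic and Pkd1KO+ciliaKO males, Ndufs1 is at 357 CPM in Pkd1KO males beside 448 CPM in noncystic males, and Cox8b is higher in females in each genotype.

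In females, Pkd1KO against noncystic called none of the 84 genes (3.34% of all genes were called), with 6 genes at an unadjusted p under 0.05 and none called by DESeq2. Estimates were below 0 for 70 of the 84 genes, against 50.3% of all genes, with a median of -0.05, and for 58 to 75 of them under the 9 other settings. The smallest p-values were those of Cox7a2l (log2 fold change -0.20, adjusted p = 0.162), Sdhc and Atp5h. Pkd1KO against Pkd1KO+ciliaKO females called Ndufs1 alone, where 11.7% of all genes were called. Estimates were below 0 for 24 of the 84 genes (52% of all genes) with a median of 0.06, beside -0.01 over all genes. On log2(TPM + 1) values 60 were below 0 and 5 genes were called lower, with a median of -0.04, beside -0.07 over all genes. The sign of the lean thus depended on the scale, while the median of the 84 genes lay above that of all genes on both. DESeq2 called 4 genes (Cox8b, Ndufb8 and Ndufa8 higher and Ndufs1 lower in Pkd1KO). Without the 2 mice that go against their Kif3a label, edgeR called Ndufa8 higher and Ndufs1 no longer.

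Pkd1KO+ciliaKO against noncystic females called none of the 84 genes, where 2.54% of all genes were called. Here 27 genes had an unadjusted p under 0.05, 26 of them lower, DESeq2 called 9, of which Cox6b2 was higher and Cox7a2l, Ndufb10, Ndufb8, Ndufs7, Ndufa6, Ndufa8, Atp5e and Ndufa3 lower, and edgeR called 4 without the 2 mice that go against their Kif3a label (Cox6b2 higher, and Ndufb10, Ndufa8 and Cox7a2l lower). The median was -0.10 with 73 genes below 0 (48% of all genes), but 0.02 with 39 below 0 on log2(TPM + 1) values, whose median over all genes was 0.09. Cox7a2l stood at 178, 210 and 232 CPM in noncystic and at 162, 168 and 179 CPM in Pkd1KO+ciliaKO females (log2 fold change -0.26, adjusted p = 0.0515). Ndufs7, which carries the last iron-sulfur cluster before ubiquinone, stood at 156, 159 and 205 CPM and at 126, 143 and 154 CPM (log2 fold change -0.24, adjusted p = 0.0739). It was the 1 gene of the 84 whose ranges did not overlap in this comparison, where 1.75% of all genes did not overlap.

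Subunit genes near the engineered loci were read separately, since a flanking segment of the floxed allele and the genotype cannot be told apart. Ndufb10, a complex I accessory subunit gene 0.126 Mb from Pkd1, stood at 195, 203 and 234 CPM in noncystic, at 145, 194 and 211 CPM in Pkd1KO and at 161, 207 and 228 CPM in Pkd1KO+ciliaKO males. In females it stood at 185, 215 and 238 CPM, at 177, 201 and 220 CPM and at 178, 182 and 200 CPM, with a log2 fold change of -0.22 (adjusted p = 0.0689) in Pkd1KO+ciliaKO against noncystic. Uqcrq, a small complex III subunit gene 0.137 Mb from Kif3a, ranged from 269 to 418 CPM in males and from 245 to 391 CPM in females. Neither gene was called in a genotype comparison of the main test, but Ndufb10 was called lower in Pkd1KO+ciliaKO than in noncystic females by DESeq2 and, without the 2 mice that go against their Kif3a label, by edgeR.

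Over the 6 genotype comparisons 5 of the 84 genes were called at least once, with 6 calls in all, and in the main test no gene was called in the same comparison in both sexes. DESeq2 called Ndufs1 lower in Pkd1KO than in Pkd1KO+ciliaKO mice of both sexes, and Cox6b2 higher and Ndufa8 lower in Pkd1KO+ciliaKO than in noncystic mice of both sexes. A fit of the 3 genotypes of a sex together also called Ndufs1 lower in Pkd1KO than in Pkd1KO+ciliaKO mice of both. On log2(TPM + 1) values limma called Uqcrfs1, the Rieske iron-sulfur protein of complex III, lower in Pkd1KO than in Pkd1KO+ciliaKO mice of both sexes and Cox6b2 higher in Pkd1KO+ciliaKO than in noncystic mice of both. Among the genes taken here as central subunits (the conserved nuclear-encoded core of complex I, all of complex II, Cyc1, Uqcrfs1, Uqcrc1, Uqcrc2, Cox4i1, Cox5a, Cox5b and the alpha, beta and gamma subunits of the ATP synthase) other than Ndufs1 and Ndufv1, the log2 fold changes lay between -0.24 (Ndufs7, Pkd1KO+ciliaKO against noncystic females) and 0.11 (Cox5b, the zinc-binding complex IV subunit, Pkd1KO against Pkd1KO+ciliaKO females), and none passed. The 17 ATP synthase genes gave no call in any genotype comparison or sex contrast of the main test, though without the 4 males that lay toward the females Atp5d, Atp5f1 and Atp5j2 were called lower in Pkd1KO+ciliaKO females than males. Between 77 and 81 of the 84 genes had a 95% interval within 0.5 of 0 on the log2 scale in each comparison. The wider intervals were those of the low isoforms Cox4i2, Cox6a2, Cox6b2, Cox8b and Ndufa4l2, apart from 1 comparison each for Cox7a1 and Ndufa2.

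The sexes of each genotype were compared in a separate fit of all 45 mice. Females against males called 17 of the 84 genes in noncystic mice (4 higher and 13 lower), 13 in Pkd1KO mice (6 higher and 7 lower) and 13 in Pkd1KO+ciliaKO mice (1 higher and 12 lower), beside 27.4%, 30.6% and 19.4% of all genes called, so that, both directions together, a smaller share of the subunit genes than of all genes was called. By direction, 13.3%, 14.3% and 8.19% of all genes were higher and 14.1%, 16.3% and 11.2% lower. Without the 4 males that lay toward the females 26 genes were called in Pkd1KO+ciliaKO mice, 25 of them lower, and without the 2 mice that go against their Kif3a label 10 were called in noncystic mice, 6 of them lower, and Cyc1 was no longer called in Pkd1KO mice. The lower genes were mainly in complex I, with 8, 5 and 9 of its 36 genes, and no complex I gene was called higher. The higher genes were in complex IV, with 4, 5 and 1 of 18, apart from Uqcrb of complex III in Pkd1KO mice. Estimated medians over the 84 genes were -0.05, -0.01 and -0.10, beside 0.03, -0.01 and 0.01 over all genes. As a share of all counts without scaling, the 84 genes had group medians of 3.02%, 2.94% and 3.02% in males. In females these were 3.11%, 3.06% and 3.05%, higher in each genotype, while the TMM-scaled sums had lower medians in females. The direction of the set as a whole between the sexes thus differed with the scaling. In all 3 genotypes Cox8b was called higher and Ndufv1, Ndufs1, Ndufa10 and Ndufa13 were called lower in females, and all 5 were also called without either set of mice.

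Cox8b had the largest difference of any of the 84 genes in each sex contrast. Males stood at 0.213, 0.808 and 2.10 CPM in noncystic, at 0.175, 1.38 and 2.21 CPM in Pkd1KO and at 0.575, 0.925 and 2.27 CPM in Pkd1KO+ciliaKO mice. Females stood at 1.96, 5.45 and 8.23 CPM, at 3.15, 6.64 and 10.3 CPM and at 2.49, 3.71 and 5.75 CPM. All Pkd1KO and Pkd1KO+ciliaKO females lay above all males of their genotype, as did 6 of 7 noncystic females. The share of all genes whose ranges did not overlap was 6.94% in Pkd1KO and 2.69% in Pkd1KO+ciliaKO mice. The log2 fold changes were 2.60 (SE 0.39, adjusted p = 1.93e-06), 2.52 (SE 0.40, adjusted p = 4.88e-06) and 1.85 (SE 0.38, adjusted p = 0.000421), or 6.04-fold, 5.73-fold and 3.60-fold higher, and each call was kept without each of the 15 mice in turn. Of the tissues in which Cox8b is known, each of the 5 striated muscle markers was at most at 0.713 CPM in any mouse, with Ckm at 0 in 12 mice and Actc1 at 0 in 7. The 4 brown adipocyte markers (Ucp1, Cidea, Adipoq and Plin1) were counted in every mouse, with sums of 1.86 to 34.2 CPM (median 12.3) in noncystic males and 8.94 to 32.4 CPM (median 16.02) in noncystic females, 2.54 to 18.4 CPM (median 13.6) and 1.67 to 53.1 CPM (median 13.04) in Pkd1KO males and females, and 5.11 to 46.6 CPM (median 11.2) and 17.7 to 41.2 CPM (median 30.8) in Pkd1KO+ciliaKO males and females. Their part in the result was not tested.

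**Figure D5:**
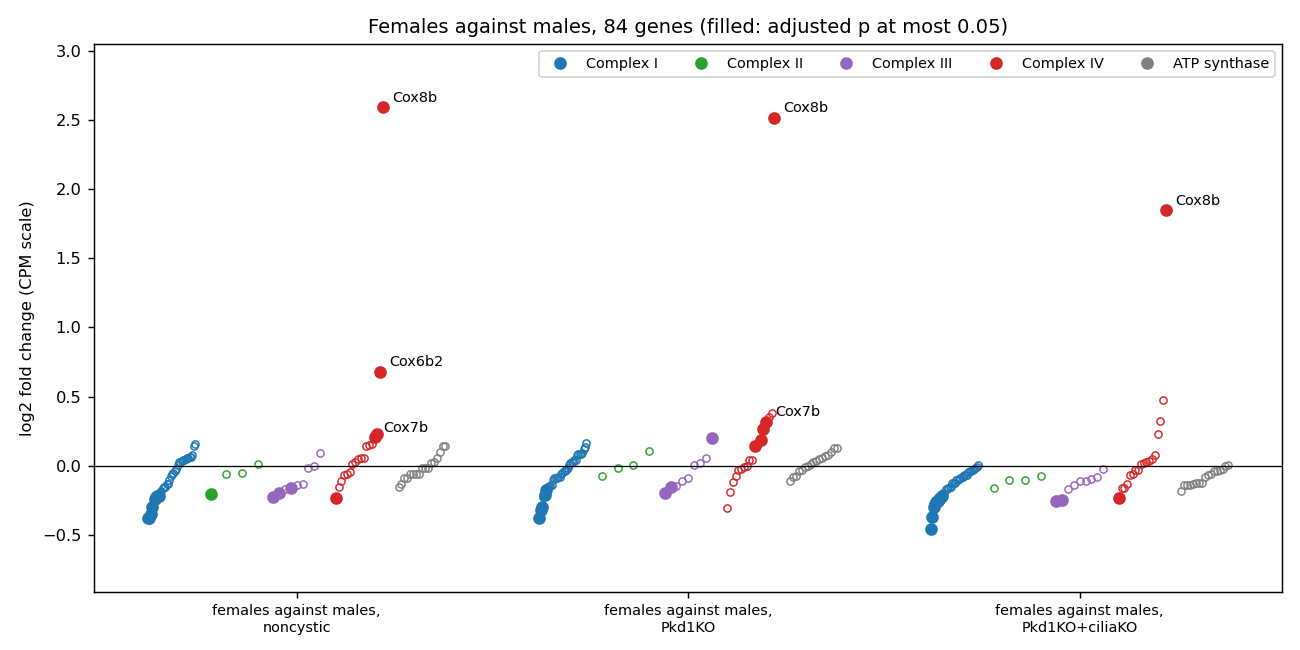
Log2 fold change of females against males for each of the 84 genes (edgeR, CPM scale) in each genotype, ordered within each complex; filled points have an adjusted p of at most 0.05. Cox8b stands apart at 2.60, 2.52 and 1.85, while the filled complex I points all lie below 0.

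Of the complex I genes lower in females, Ndufv1 stood at 313, 347 and 410 CPM in noncystic, at 279, 330 and 393 CPM in Pkd1KO and at 290, 327 and 393 CPM in Pkd1KO+ciliaKO females, under the male medians of 453, 407 and 388 CPM. Its log2 fold changes were -0.38 (adjusted p = 6.94e-05), -0.30 (adjusted p = 0.00118) and -0.26 (adjusted p = 0.00854), and those of Ndufs1 were -0.38 (adjusted p = 0.000193), -0.21 (adjusted p = 0.0315) and -0.30 (adjusted p = 0.00537). Ranges of Ndufv1 overlapped between the sexes in every genotype, and those of Ndufs1 in noncystic and Pkd1KO mice. The Ndufs1 call in Pkd1KO mice was lost without any 1 of Pkd1KO males 1, 6 and 7 or females 1, 4 and 7, with an adjusted p of up to 0.0798.

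Ndufa10, an accessory subunit of the membrane arm, stood at medians of 371, 349 and 347 CPM in males and 315, 312 and 300.1 CPM in females of the 3 genotypes, with log2 fold changes of -0.22 (adjusted p = 0.00227), -0.18 (adjusted p = 0.0141) and -0.24 (adjusted p = 0.00231). Ndufa13, also known as GRIM-19, stood at medians of 371, 348 and 329 CPM in males and 265, 268 and 248 CPM in females, with log2 fold changes of -0.35 (adjusted p = 0.00392), -0.33 (adjusted p = 0.00684) and -0.37 (adjusted p = 0.00486). The ranges of both genes overlapped between the sexes. Ndufa13 shares exon bases with Tssk6, which had at most 169 counts in any mouse. Ndufv3, a flavoprotein accessory subunit, was lower in Pkd1KO (-0.38, adjusted p = 0.00818) and Pkd1KO+ciliaKO females (-0.46, adjusted p = 0.00387), with 181, 334 and 401 CPM in Pkd1KO+ciliaKO males and 193, 229 and 242 CPM in Pkd1KO+ciliaKO females.

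Cox7b, an accessory complex IV subunit, was the second by p-value of the genes higher in Pkd1KO females. It stood at 399, 426 and 472 CPM in noncystic, 338, 374 and 438 CPM in Pkd1KO and 382, 423 and 499.5 CPM in Pkd1KO+ciliaKO males, and at 433, 491 and 535 CPM, 417, 485 and 514 CPM and 396, 451 and 478 CPM in females. The log2 fold change was 0.20 (adjusted p = 0.00841) in noncystic and 0.32 (adjusted p = 7.38e-05) in Pkd1KO mice, where 7 of 8 females lay above every male, and 0.08 (adjusted p = 0.398) in Pkd1KO+ciliaKO mice. Cox6b2 was higher in noncystic females (0.68, adjusted p = 0.00501), with 0.38 (adjusted p = 0.113) and 0.02 (adjusted p = 0.958) in the other genotypes. Among proximal tubule markers, 5 of 10 were called lower in females in each genotype, and 0, 2 and 3 higher. Their part in the differences between the sexes was not tested.

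The test of a difference between the sexes in a genotype effect called none of the 84 genes for Pkd1KO against noncystic, Pkd1KO against Pkd1KO+ciliaKO, or Pkd1KO+ciliaKO against noncystic, where 0.0126%, 0.221% and 0.0316% of all genes were called. There were 0, 3 and 2 genes at an unadjusted p under 0.05, and DESeq2 called none. In the second, 79 of the 84 estimates lay above 0 and 5 below, against 50.4% of all genes below, with a median of 0.11. Between 6 and 13 lay below 0 under the 5 other settings. The smallest p-values belonged to Cox6c (0.16, adjusted p = 0.723) in the first, Cox7b (0.24, SE 0.09, adjusted p = 0.387) and Cox7a1 (0.30, adjusted p = 0.479) in the second, and Cox6b2 in the third, with a 95% interval from -1.19 to -0.12 for the difference of log2 fold changes.

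Genes that build, regulate and feed the system were counted beside the subunits, with all mice kept. Their calls were not read without the 2 mice that go against their Kif3a label. Assembly factors, which insert cofactors and join subunits, gave no call among 49 genes in Pkd1KO against noncystic males or females. They gave 6 higher in Pkd1KO against Pkd1KO+ciliaKO females (Ndufaf6, Ndufaf7, Ndufaf8, Coa3, Coa6 and Lyrm7), where 7.05% of all genes were higher. In the same comparison of males 1 was higher, Lyrm7 at a log2 fold change of 1.09, beside 318 of 15991 genes. In Pkd1KO+ciliaKO against noncystic mice 3 were lower in males and 2 in females, beside 521 of 15991 and 298 of 15968 genes. Lyrm7 was 1 of the 3, at -1.17. Distance from Pkd1 or Kif3a was not read for these lists. Near those loci a flanking segment and the genotype cannot be told apart. In females against males 13, 12 and 19 of the 49 were lower and 1, 0 and 0 higher, in noncystic, Pkd1KO and Pkd1KO+ciliaKO mice, where 14.1%, 16.3% and 11.2% of all genes were lower.

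Of 18 regulators of mitochondrial gene expression, Ppargc1a, the coactivator PGC-1alpha, fell by 0.28 on the log2 scale (adjusted p = 0.0426) and Esrrb, an estrogen-related receptor, by 0.59 (adjusted p = 0.0158) in Pkd1KO against noncystic males. Gabpb1, a subunit of GABP, was higher by 0.73 in Pkd1KO than in Pkd1KO+ciliaKO females, and in females than in males of each genotype, by 0.83, 1.14 and 0.43. Tfam, the mitochondrial transcription and packaging factor, was lower in females, with log2 fold changes of -0.31, -0.21 and -0.19. Of 13 tricarboxylic acid cycle genes only Fh1, fumarase, was called by genotype, lower in Pkd1KO than in noncystic males, and 9, 1 and 2 were lower in females. Of 14 genes for electron carriers and their synthesis or for the ATP synthase inhibitor, Coq8a, needed for coenzyme Q synthesis, was called lower in Pkd1KO than in noncystic mice of both sexes, with log2 fold changes of -0.47 (adjusted p = 0.0413) in males and -0.57 (adjusted p = 0.00295) in females, and lower than in Pkd1KO+ciliaKO females (-0.72, adjusted p = 0.00248). In Pkd1KO against Pkd1KO+ciliaKO females, Etfb (0.33, adjusted p = 0.00532) and Atpif1, the ATP synthase inhibitor (0.44, adjusted p = 0.00562), were called higher. Atpif1 was also called lower in Pkd1KO+ciliaKO than in noncystic females (-0.40, adjusted p = 0.0164). Cycs, cytochrome c, was lower in females of all 3 genotypes, as 1 of the 7, 5 and 6 of these 14 genes called lower. Of 12 genes of the mitochondrial genome, 7 were called lower in Pkd1KO than in Pkd1KO+ciliaKO females, where 743 of 15968 genes were. The median log2 fold change over the 12 was -1.26, while of the nuclear-encoded subunits only Ndufs1 was called there. The mitochondrially encoded subunits took 0.0297% to 0.166% of counts in Pkd1KO and 0.0758% to 0.267% in Pkd1KO+ciliaKO females. How these transcripts come into a pulldown of tagged ribosomes was not tested.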

How the data were processed

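TRAP RNASeq was measured in 45 kidneys. The authors deposited raw counts per gene and mouse, and TPM values per sex for genes past a filter (at least 6 counts in at least 20% of mice). Per the labels and submitters' processing notes, reads were trimmed with fastp 0.20.0, aligned with STAR 2.7.9 to GRCm38.p6 and counted with featureCounts 2.0.0; strand and multimapping options are not given in the sources used here. The deposited TPM values sum to between 727843 and 946924 per mouse. Symbols and overlaps were taken from the deposited tables and a GENCODE annotation of GRCm38; 30 of the 84 genes share exon bases with another gene, and counts of these are less certain.

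Counts were fitted with edgeR 4.0.16 (R 4.3.3), TMM normalization and the quasi-likelihood test, pairwise within each sex over the genes of that sex's TPM table (15991 in males, 15968 in females), with Benjamini-Hochberg adjustment over all of them. Sex contrasts and sex-by-genotype differences came from 1 fit of 45 mice over 15828 genes, which compares different mice and shares groups between contrasts. DESeq2 1.42.0, limma 3.58.1 on log2(TPM + 1), other scalings and filters, a replicate block and leaving out each mouse were alternatives. Comparisons of a genotype share the mice of that genotype. Total counts of 80874556 to 132958186 per mouse set the precision, and the floor of 3 counts covers counting error only.

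The subunit genes and the lists were chosen with earlier results of these data known. Genes are named by rule: the 3 called genes with the smallest p per direction (2 for sex contrasts and interactions), or the 3 smallest p where none was called, central subunits, isoform pairs, the 3 highest and lowest in TPM, genes within 5 Mb of Pkd1 or Kif3a, and those called alike in both sexes; Uqcrb, Uqcrq, genes of the other lists and genes named for DESeq2 or reduced sets were named after their values were seen. Protein sequences were not used here.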

Additional observations from a re-analysis of the deposited data

Results flagged for a closer look

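In 6 of 96 groups of values tested, 1 mouse stood apart from its group by Dixon's criterion, which chance passes in about 1 of 20 groups. Ndufs1 was at 594 CPM in Pkd1KO+ciliaKO male 8, with the next mouse at 461 CPM, and Cox6b2 at 4.47 CPM in noncystic male 1. Cox7a1 was at 44.1 CPM in Pkd1KO+ciliaKO male 6 and at 36.3 CPM in noncystic female 3. Ndufv1 was at 447 CPM in Pkd1KO+ciliaKO male 4, and Ndufa13 at 368 CPM in noncystic female 3, with the next mouse at 275 CPM.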

How the results depend on the processing

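Counts of called subunit genes were low in most genotype comparisons and moved with the setting. With DESeq2 they were 5 in Pkd1KO against noncystic males, 3 and 4 in Pkd1KO against Pkd1KO+ciliaKO males and females, and 9 in Pkd1KO+ciliaKO against noncystic females; in 1 fit of the 3 genotypes they were 3, 1, 2 and 1. With no filter on low counts they were 0 in Pkd1KO against noncystic males, 1 in Pkd1KO+ciliaKO against noncystic males and 0 in Pkd1KO against Pkd1KO+ciliaKO females. With limma on log2(TPM + 1) they were 3 in Pkd1KO against noncystic, 3 in Pkd1KO against Pkd1KO+ciliaKO and 2 in Pkd1KO+ciliaKO against noncystic males, and 5 and 1 in the last pair of comparisons in females; on log2(TPM + 0.1) they were 2, 2, 5 and 1, without a change in the first. Without the 2 females that go against their Kif3a label (chosen after seeing the data) 4 genes were called in Pkd1KO+ciliaKO against noncystic females and 10 in females against males, noncystic. Without the 4 males toward the females (also chosen after seeing the data) 26 were called in females against males, Pkd1KO+ciliaKO. The summed CPM of the members, noncystic male, was 30564 with unscaled library sizes, against 32597. The causes were not tested.

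Leaving out 1 mouse gave 1 to 3, 0 to 1 and 1 to 5 calls in Pkd1KO against noncystic, Pkd1KO against Pkd1KO+ciliaKO and Pkd1KO+ciliaKO against noncystic males, 0 to 0, 0 to 4 and 0 to 4 in females, 11 to 21, 8 to 14 and 7 to 20 in the sex contrasts of noncystic, Pkd1KO and Pkd1KO+ciliaKO mice, and 0 in the 3 differences between sexes. The highest counts came without Pkd1KO male 1 (3), Pkd1KO male 4 (1), noncystic male 3 (5), Pkd1KO+ciliaKO female 1 (4) and noncystic female 5 (4) in the genotype comparisons. In the sex contrasts they came without noncystic male 3 or female 3 (21), Pkd1KO male 4 or female 3 (14) and Pkd1KO+ciliaKO male 8 (20). The lowest in the sex contrasts came without Pkd1KO+ciliaKO females 3 or 4 (7), Pkd1KO female 1 (8), and noncystic male 2 or noncystic females 2 or 5 (11). Of the 43 calls in the sex contrasts 23 were kept without each mouse. Same-numbered mice shared only a number: their deviations correlated from -0.35 to 0.45 and passed 0.1 in 1 to 4 of the 6 to 8 pairs per comparison, and at most 2 pairs correlated best with their own number. With the replicate block 1 gene was called in Pkd1KO+ciliaKO against noncystic males, 0 in Pkd1KO against Pkd1KO+ciliaKO females and 20 in females against males, Pkd1KO+ciliaKO.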
